A study of Mus musculus with 12 samples.

Results

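Transcripts of 10 genes for clotting proteins of the blood plasma were followed in liver and lung of mice 6 h after CLP, cecal ligation and puncture, which lets gut bacteria leak into the abdomen and serves as a sepsis model. The genes were chosen by symbol and matched by identifier to the count table, and all 10 of the 10 symbols were found among 55414 gene identifiers. They are the clotting factor genes F2, F5, F7, F9, F10, F11 and F12, the inhibitor genes Proc (protein C) and Serpinc1 (antithrombin), and Plg (plasminogen). The animals were wild-type C57BL/6J mice that had undergone CLP or a sham operation. There were 3 libraries each of CLP liver, sham liver, CLP lung and sham lung, made from total RNA with a stranded kit. The labels give neither sex nor age, and do not state whether the libraries are from different mice, so the p-values cover the spread among libraries, which may be technical. Total counts per library ran from 10559895 to 15854117. Levels are given as CPM, counts scaled to a common library size within each organ. A gene was called when its Benjamini-Hochberg adjusted p in edgeR's quasi-likelihood test, fitted over all genes of an organ, was below 0.05.

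Clotting factors circulate as inactive precursors. Tissue factor on cells outside the blood binds factor VII, the complex activates factors IX and X, and activated factor X with its cofactor factor V turns prothrombin, the product of F2, into thrombin. Factors XI and XII start the contact route, antithrombin and activated protein C restrain the cascade, and plasminogen is the precursor of the enzyme that dissolves fibrin. Hepatocytes are the main source of these proteins, and prothrombin, factors VII, IX and X and protein C need a vitamin K dependent modification before they are secreted.

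In liver, F7 alone of the 10 genes was called. It was lower after CLP, at 52.3 ± 10.2 CPM in CLP liver and 84.7 ± 10.5 CPM in sham liver (SD, n = 3 each). The other 9 genes did not pass the test, with log2 fold changes between -0.22 and 0.16, and none was called higher (0 by edgeR at an unadjusted p under 0.05, and 0 by DESeq2 or limma-voom after adjustment). Of the 12392 genes tested in liver, 42.3% were called in either direction and 21.4% were higher and 21.0% lower, or 2647 and 2600 genes. With library totals alone the split was 1689 higher and 3796 lower, with the median gene at -0.21, and 3 of the 10 genes were lower. The median log2 fold change was -0.02 over the 10 genes and -0.01 over all genes tested. The CLP and sham libraries overlapped for 8 of the 10 genes. They did not overlap for F7 and F12, against 55.7% of all genes tested whose liver groups did not overlap in either direction.

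**Figure D1:**
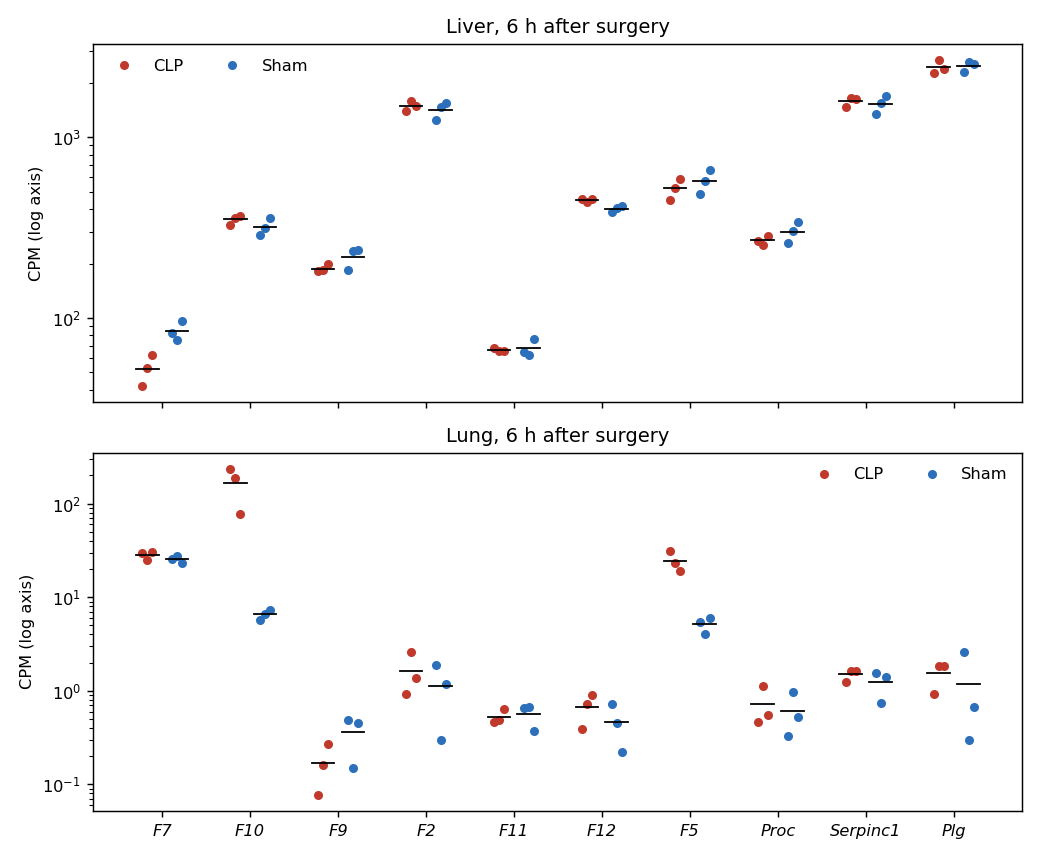
CPM on a log axis for each of the 10 genes in the 3 CLP (red, left) and 3 sham (blue, right) libraries of liver (top) and lung (bottom). Points are libraries and bars are means. In liver the red and blue points separate for F7 and, by a narrower gap, for F12, and in lung for F10 and F5.

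Factor VII has the shortest life in plasma of the vitamin K dependent clotting factors and starts the tissue factor route. F7 (ENSMUSG00000031443) stood at 42.0, 52.6 and 62.3 CPM in the CLP livers, against 82.3, 75.7 and 96.3 CPM in the sham livers. Every CLP library lay below every sham library. The log2 fold change was -0.70 ± 0.16 (standard error), a level 0.617 times that of sham with a 95% interval of 0.482 to 0.789 (edgeR, Benjamini-Hochberg adjusted p = 0.00765). The call held in all 14 alternative settings tried, with log2 values from -0.90 to -0.55. A measure that needs no scaling gave the same order. F7 counts were 12.8, 14.8 and 16.9% of the F10 counts of the same library in CLP liver, and 28.4, 24.2 and 27.0% in sham liver. Relative to F2 they were 3.00 to 4.21% in CLP liver and 5.18 to 6.64% in sham liver, again without overlap. The 3 genes outside the coagulation lists whose log2 CPM followed F7 most closely over the 6 liver libraries were Gm35570 (Pearson r = 0.996), Mecom (0.993) and Tceanc2 (0.991), a description over libraries that share the CLP contrast.

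F10 (ENSMUSG00000031444) encodes the factor X that the complex of tissue factor and factor VII activates, and it lies next to F7 on the same strand. It stood at 328, 357 and 368 CPM in CLP liver, against 289, 313 and 357 CPM in sham liver. These ranges overlapped, and the log2 fold change of 0.14 ± 0.12 did not pass the test (edgeR, Benjamini-Hochberg adjusted p = 0.404). The 95% interval allowed levels from 0.904 to 1.33 times sham. The promoter sequences of F7, F10 and F5 are shown because these 3 genes carry every call among the 10 in liver, lung or between them. The windows are the 250 bases before the annotated start in RefSeq (GRCm38.p6, 5′ to 3′ on the gene's own strand). Capitals mark the matches to the motifs searched. F7 lies at chr8:13025784-13026033 on the plus strand, F10 at chr8:13037058-13037307 on the plus strand and F5 at chr1:164151585-164151834 on the plus strand.
F7: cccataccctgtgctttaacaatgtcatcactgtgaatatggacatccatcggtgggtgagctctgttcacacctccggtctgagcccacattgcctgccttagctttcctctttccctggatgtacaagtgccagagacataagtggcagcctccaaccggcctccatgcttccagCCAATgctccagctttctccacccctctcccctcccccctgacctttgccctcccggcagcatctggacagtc
F10: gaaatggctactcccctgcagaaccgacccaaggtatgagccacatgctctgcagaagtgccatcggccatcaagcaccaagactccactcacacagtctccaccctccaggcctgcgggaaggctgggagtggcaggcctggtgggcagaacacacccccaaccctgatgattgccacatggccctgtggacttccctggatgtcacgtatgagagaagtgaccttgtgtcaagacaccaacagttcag
F5: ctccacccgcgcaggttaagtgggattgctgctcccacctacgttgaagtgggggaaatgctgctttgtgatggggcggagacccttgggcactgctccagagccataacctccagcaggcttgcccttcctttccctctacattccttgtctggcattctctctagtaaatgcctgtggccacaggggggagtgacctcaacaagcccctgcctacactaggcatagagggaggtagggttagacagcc

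The table of promoters held 8 of the 10 genes, all but Proc and Plg. For F2, F5, F12 and Serpinc1, the bases just after the RefSeq start were not found unbroken in transcripts of GENCODE M21, a second annotation. The reason was not examined. The motifs reported here, searched on both strands, were CAAAGTNCA for HNF4, TTGCNNAA for C/EBP, TTCNNNGAA for STAT, GGGANTTCC for NF-kB, TATAAA for the TATA box and CCAAT, and no match overlapped another. The list is not complete, since 1 further motif is not reported. TATAAA was found in 0 of the 8 windows and in 12.4% of 32851 windows of all genes. CCAAT was found in 2, F7 and F12, against 33.8% of all windows. The F9 window held the HNF4, STAT and C/EBP letters, which 1.19%, 7.02% and 9.56% of all windows hold, and F11 held the C/EBP letters. The NF-kB letters were in none of the 8. The windows of F10 and F5 held none of these motifs. A match is a description of letters and not a binding site.

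F9 and F2 are the other vitamin K dependent factors that drive clotting forward. F9, whose product with factor VIII activates factor X, stood at 181, 183 and 198 CPM in CLP liver, against 184, 235 and 237 CPM in sham liver. The groups overlapped in CPM through sham replicate 1, and the log2 fold change was -0.22 ± 0.13 (edgeR, Benjamini-Hochberg adjusted p = 0.204). F9 counts were 12.9, 11.6 and 13.4% of the F2 counts of the same library in CLP liver. In sham liver they were 14.9, 16.1 and 15.3%, so the groups did not overlap in this ratio, which was not tested. F9 was called lower with library totals alone, at -0.41 and an adjusted p of 0.0163, a setting in which the median gene stood at -0.21. F2, prothrombin, stood at 1399, 1577 and 1480 CPM in CLP liver and at 1239, 1461 and 1550 CPM in sham liver. The groups overlapped fully, and the 95% interval ran from 0.852 to 1.29 times sham.

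Factor V, the cofactor of factor X, needs no vitamin K. F5 stood at 452, 524 and 589 CPM in CLP liver, against 487, 570 and 660 CPM in sham liver. The groups overlapped, and the log2 fold change was -0.13 ± 0.16 (edgeR, Benjamini-Hochberg adjusted p = 0.518). The exons of F5 overlap a non-coding gene on the other strand, and reads of both genes would mix if strand was not used in counting.

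Factors XII and XI belong to the contact route. F12 stood at 453, 438 and 457 CPM in CLP liver, against 383, 408 and 414 CPM in sham liver. All CLP libraries were above all sham libraries, but the log2 fold change of 0.16 ± 0.11 did not pass the test (edgeR, Benjamini-Hochberg adjusted p = 0.250), and with library totals alone it was -0.03. F11 stood at 68.3, 65.8 and 65.8 CPM in CLP liver, against 64.9, 62.6 and 76.2 CPM in sham liver. Its interval of 0.835 to 1.15 times sham was the narrowest of the 10 on the log2 scale.

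Among the inhibitors, Serpinc1, which encodes the thrombin and factor X inhibitor antithrombin, stood at 1469, 1652 and 1627 CPM in CLP liver, against 1344, 1554 and 1681 CPM in sham liver. The groups overlapped, with a 95% interval of 0.842 to 1.28 times sham. Serpinc1 counts were 104.8 to 109.9% of the F2 counts of the same library in CLP liver and 106 to 108% in sham liver. The exons of Serpinc1 overlap Zbtb37 on the other strand, which held 3862 counts over all 12 libraries. Proc, whose product inactivates factors V and VIII, stood at 267, 254 and 285 CPM in CLP liver, against 260, 303 and 338 CPM in sham liver. Its log2 fold change was -0.16 ± 0.13 (edgeR, Benjamini-Hochberg adjusted p = 0.351), and it was called lower with library totals alone, at -0.35 and an adjusted p of 0.0357. Proc counts were 19.1, 16.1 and 19.3% of F2 counts in CLP liver and 21.0, 20.7 and 21.8% in sham liver, groups that did not overlap. The ratios to F2 overlapped for Plg (161 to 169% in CLP liver, 164 to 184% in sham liver). They also overlapped for F12 (27.8 to 32.4% and 26.7 to 30.9%). How many of all genes would not overlap in a ratio to F2 was not worked out, and in CPM 55.7% did not overlap. With 3 libraries against 3, an exact permutation test of such a ratio cannot go below p = 0.10.

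Plg, the precursor of the fibrin-dissolving enzyme plasmin, stood at 2273, 2664 and 2387 CPM in CLP liver, against 2286, 2596 and 2540 CPM in sham liver. The groups overlapped, and the log2 fold change was -0.02 ± 0.12, with an interval of 0.810 to 1.20 times sham. Its exons overlap Slc22a3 on the other strand, which held 658 counts over all 12 libraries. The missing calls in liver do not show equal levels. The intervals of the 9 genes other than F7 allowed levels from 0.698 times sham, for F9, to 1.33 times sham, for F10.

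**Figure D2:**
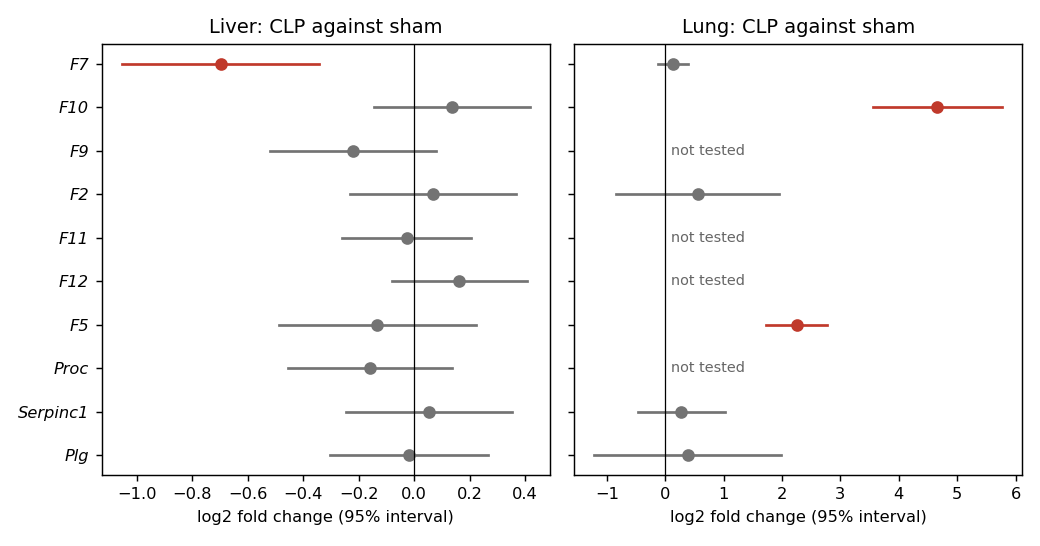
Log2 fold change of CLP against sham with its 95% interval for each of the 10 genes in liver (left) and lung (right), red where the adjusted p was below 0.05. In liver F7 alone lies clear of 0, at -0.70. In lung F10 (4.66) and F5 (2.25) do, and 4 genes had too few counts to be tested. The horizontal scales differ.

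Levels of different genes can be compared only per length of transcript. With the coding length of each gene (GENCODE M21), sham liver held 1083 ± 121 CPM per kb of Serpinc1, 1016 ± 67.8 of Plg and 764 ± 86.2 of F2 (SD, n = 3). F12 (224 ± 8.95), Proc (218 ± 28.0) and F10 (216 ± 23.1) formed a middle group in CPM per kb whose libraries overlapped. They were followed by F9 at 155 ± 21.2, F5 at 87.4 ± 13.2, F7 at 63.3 ± 7.85 and F11 at 36.3 ± 3.89 CPM per kb. Serpinc1 and Plg overlapped too and have no order between them. With the length of all annotated exons, which is 8546 bases for Serpinc1 against 1409 coding bases, Serpinc1 stood behind Plg, F2 and F12 at 179 ± 19.9 CPM per kb, and Plg at 667 ± 44.5. By the length of all exons F12 stood at 205 ± 8.18 CPM per kb in sham liver. It lay above Proc (121 ± 15.6) and F10 (117 ± 12.5) without overlap, so the middle group held by coding length only. F7 and F11 were the lowest in sham liver by either length.

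In lung, of the 10 genes, 6 had enough counts to be tested, and 2 were called, F10 and F5, both higher after CLP. Of 15441 genes tested in lung, 48.9% were called, 23.9% higher and 24.9% lower, or 3698 and 3850 genes. With library totals alone the split was 2977 and 4847, and with upper-quartile scaling 2929 and 4946. None of the 6 was called lower (0 by edgeR at an unadjusted p under 0.05, 0 by DESeq2 and 0 by limma-voom).

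F10 stood at 235, 187 and 77.7 CPM in CLP lung, against 5.77, 6.66 and 7.32 CPM in sham lung. Every CLP library was above every sham library by a wide margin, and CLP replicate 3 was the lowest of its group. The log2 fold change was 4.66 ± 0.46, a level 25.3 times that of sham with a 95% interval of 11.7 to 54.5 (edgeR, Benjamini-Hochberg adjusted p = 0.000480). Without CLP replicate 3 the log2 value was 5.04. In counts, the 3 CLP lungs held 3024, 2313 and 854 reads of F10 and the 3 sham lungs 71, 89 and 98.

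F5 stood at 31.4, 23.2 and 18.8 CPM in CLP lung, against 5.45, 4.04 and 5.97 CPM in sham lung. The groups did not overlap, as for 59.7% of all genes tested in lung in either direction. The level was 4.76 times that of sham with a 95% interval of 3.32 to 6.82 (log2 fold change 2.25 ± 0.23, edgeR, Benjamini-Hochberg adjusted p = 0.000212). The calls of F10 and F5 in lung held in all 14 alternative settings. Both genes had their highest CLP value in replicate 1 and their lowest in replicate 3.

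F7, the gene that fell in liver, stood at 29.6, 24.8 and 30.2 CPM in CLP lung, against 25.6, 27.9 and 23.4 CPM in sham lung. The groups overlapped, and the log2 fold change was 0.14 ± 0.11 (edgeR, Benjamini-Hochberg adjusted p = 0.340), with an interval of 0.922 to 1.31 times sham. Its lung counts were 307 to 380 in CLP and 313 to 373 in sham libraries.

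**Figure D3:**
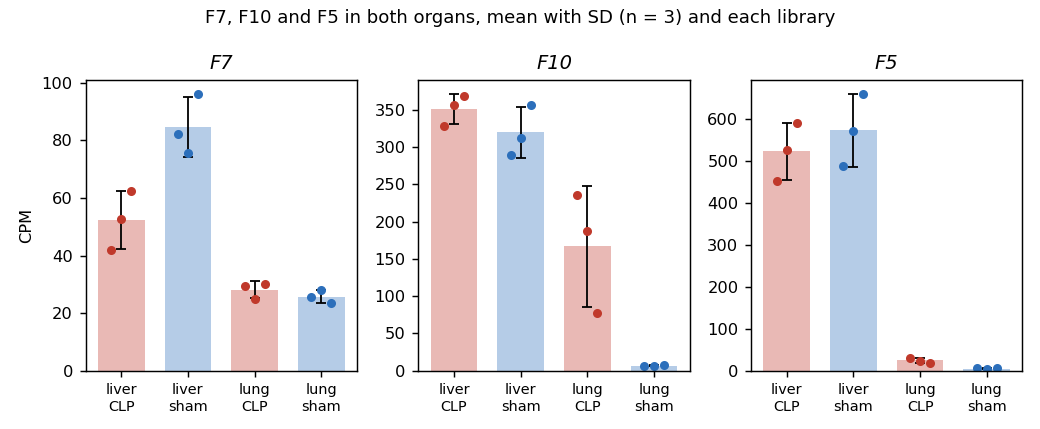
CPM of F7, F10 and F5 in CLP (red) and sham (blue) libraries of liver and lung, on linear axes that start at 0. Bars are means, error bars SD over 3 libraries and points libraries. F7 is lower in CLP liver (52.3 against 84.7 CPM), and F10 is higher in CLP lung (167 CPM) than in sham lung (6.58 CPM).

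The other 7 genes had between 1 and 32 counts in each lung library. Prothrombin F2 had 12, 32 and 15 counts in CLP lung and 23, 4 and 16 in sham lung, and Plg had 12, 23 and 20 in CLP lung and 32, 4 and 9 in sham lung. F2, Serpinc1 and Plg were tested and not called. Without sham replicate 1, Plg was called higher in lung, at a log2 value of 1.63 and an adjusted p of 0.0461 in edgeR with Benjamini-Hochberg adjustment. F9, F11, F12 and Proc did not pass the low-count filter. F9 was at or under 3 counts in every CLP lung library, with 1, 2 and 3 counts, against 6, 2 and 6 in sham lung, so its level there was not distinguishable from the detection limit of 3 counts per library.

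The low lung counts were set beside those of the hepatocyte transcript Alb, which had 517, 604 and 400 counts in CLP lung and 1051, 221 and 470 in sham lung, against 564303 to 1094943 in the 6 liver libraries. F2, Serpinc1 and Plg stood in lung at ratios to Alb near those in liver. Their summed lung counts were 1.62, 1.39 and 0.923 times the count at the median liver ratio in CLP lung, and 1.03, 1.08 and 0.659 times in sham lung. Among the sham lungs, replicate 2 had the lowest count of all 4 of these transcripts. F9, F12 and Proc stood at 1.17, 2.35 and 3.49 times in CLP lung and at 2.37, 1.54 and 2.81 times in sham lung. F7 stood at 629 times that count in CLP lung and 540 times in sham lung, F10 at 746 and 27.1 times, and F5 at 66.1 and 12.9 times. F11 had 19 counts in CLP lung and 22 in sham lung, or 11.1 and 11.2 times the count at the liver ratio. Whether liver-derived RNA gave the low counts was not tested.

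**Figure D4:**
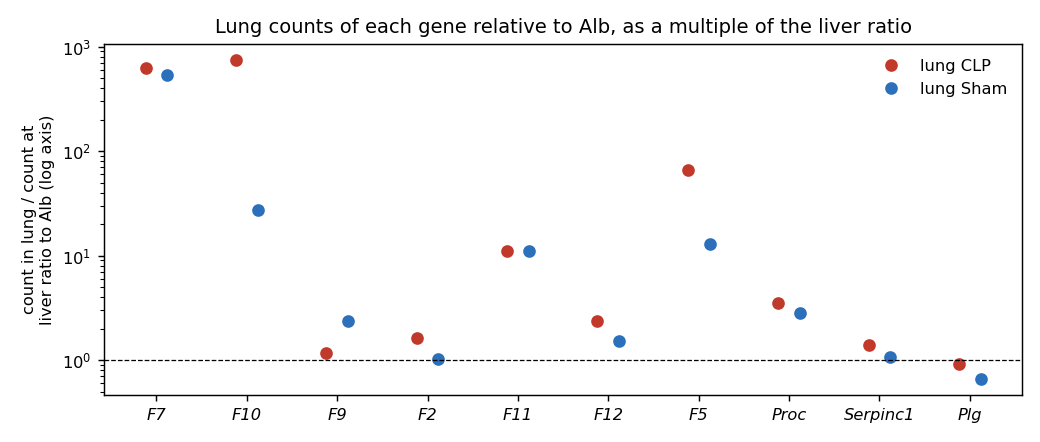
Summed lung counts of each gene divided by the count that its median liver ratio to Alb would give, on a log axis, for 3 CLP (red, left) and 3 sham (blue, right) lung libraries. The dashed line marks the liver ratio. F2, Serpinc1 and Plg lie near it, and F7, F10 and F5 lie above it by 12.9 times or more.

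Levels were compared between liver and lung on library totals. The name of the group, liver-made, held for the RNA of most genes. In sham mice the liver level exceeded the lung level 1302-fold for F2, 1270-fold for Serpinc1, 2147-fold for Plg and 114-fold for F5. F10 stood at 340.9 CPM in sham liver and 6.82 CPM in sham lung. F7 was the exception, at 90.7 ± 12.6 CPM in sham liver and 26.5 ± 2.25 CPM in sham lung, or 3.42-fold. After CLP, F7 in liver exceeded lung 1.80-fold and F10 2.05-fold, with F10 at 327 ± 16.0 CPM in CLP liver and 159.9 ± 75.8 CPM in CLP lung (SD, n = 3 each).

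Whether the organs responded differently was tested over the 12 libraries together, subtracting the lung change from the liver change. A difference was called for 3 of the 10 genes, against 17.7% of 16111 genes tested (8.89% negative and 8.84% positive), and for all 3 it was negative. None was called positive (0 by edgeR at an unadjusted p under 0.05, 0 by DESeq2 and 0 by limma-voom). It came to -4.50 ± 0.44 for F10 (edgeR, Benjamini-Hochberg adjusted p = 5.46e-05), to -2.36 ± 0.29 for F5 (0.000181) and to -0.81 ± 0.20 for F7 (0.0144). These calls held in all 19 alternatives. For the other 7 genes the values lay between -0.46 and 0.85 and did not pass the test, and 4 of these genes were too low to be tested in lung by itself. Plg was called at -1.61 without sham lung replicate 1 (adjusted p = 0.0383).

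Genes that act with the 10 were described by lists of their roles, and their counts in liver stand against 21.4% of all tested genes called higher and 21.0% called lower. Of 12 other genes of the cascade, contact route and fibrin, all were tested in liver, 3 were higher and 2 lower. F13a1, the A chain of the fibrin-crosslinking factor XIII, stood at 6.86 ± 1.33 CPM in CLP liver and 0.321 ± 0.264 CPM in sham liver, and it is also listed among the monocyte markers. The sham livers held 4, 1 and 10 reads of F13a1, near the detection limit. F3, tissue factor, which binds factor VII, was lower in CLP liver at 1.22 ± 0.687 CPM, against 4.07 ± 0.688 CPM in sham liver. In lung F3 was higher after CLP, at 165 ± 17.5 CPM, against 86.3 ± 3.00 CPM in sham lung, and the liver change minus the lung change was -2.62 ± 0.31 (edgeR, Benjamini-Hochberg adjusted p = 0.000132). The fibrinogen beta chain gene Fgb stood at 22768 ± 1586 CPM in CLP liver and 16982 ± 1496 CPM in sham liver (log2 fold change 0.42 ± 0.13, adjusted p = 0.0284), a call that held in 7 of 14 alternatives. Fga, the alpha chain, had a log2 fold change of 0.34 ± 0.13 and an adjusted p of 0.0696. Fgg and F8, named after their values were seen to complete the count, were the other higher and lower genes, at 0.52 and -0.72.

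Of 13 other inhibitors and protein C pathway genes, 12 were tested in liver, 4 were higher and 2 lower. Procr, the endothelial receptor that presents protein C for activation, stood at 13.1 ± 4.43 CPM in CLP liver and 0.440 ± 0.342 CPM in sham liver. The sham livers held 2, 11 and 6 reads of Procr, near the detection limit. Thbd, thrombomodulin, which turns thrombin into an activator of protein C, stood at 79.8 ± 21.1 CPM in CLP liver and 8.92 ± 5.50 CPM in sham liver. In lung Thbd was lower after CLP, at 599 ± 24.6 CPM, against 1149 ± 69.7 CPM in sham lung. The protease trap gene A2m stood at 845 ± 28.5 CPM in CLP liver and 48.2 ± 40.7 CPM in sham liver. Hrg, a plasma protein that binds heparin and plasminogen, was lower at 534 ± 54.8 CPM in CLP liver, against 876 ± 43.5 CPM in sham liver. Pzp and Apoh, the most abundant of the list, had log2 fold changes of 0.22 and -0.03 and were not called. Serping1, the C1 inhibitor gene, was the remaining higher gene (0.33) and Proz, protein Z, the other lower one (-0.72), both named after their values were seen.

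Of 7 fibrinolysis genes, 6 were tested in liver, 3 were higher and 0 lower (0 by edgeR at an unadjusted p under 0.05, 0 by DESeq2 and 0 by limma-voom). The urokinase receptor gene Plaur stood at 13.9 ± 5.05 CPM in CLP liver and 0.747 ± 0.241 CPM in sham liver. Plat, tissue plasminogen activator, stood at 2.29 ± 1.29 CPM in CLP liver and 0.491 ± 0.375 CPM in sham liver, a call that ended without CLP replicate 1 (adjusted p = 0.0777) and without sham replicate 3 (0.0596). The sham livers held 11, 1 and 10 reads of Plat. Cpb2, whose product slows fibrin breakdown, stood at 755 ± 16.7 CPM in CLP liver and 551 ± 43.1 CPM in sham liver, a call that ended with library totals alone (adjusted p = 0.0692) and in the fit of all 12 libraries (0.124). Serpinf2, the plasmin inhibitor, had a log2 fold change of 0.17 ± 0.11 and was not called.

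Of 7 genes of the vitamin K cycle and of factor maturation, all tested, 4 were lower in liver and 0 higher (0 by edgeR at an unadjusted p under 0.05, 0 by DESeq2 and 0 by limma-voom), with a median log2 fold change of -0.42, where 21.0% of all tested genes were lower. The 4 were Aifm2 (-1.07 ± 0.12), which encodes a vitamin K reductase, Ggcx (-0.46 ± 0.10), the carboxylase that modifies the vitamin K dependent factors, Vkorc1 (-0.42 ± 0.11), the epoxide reductase, and its relative Vkorc1l1 (-0.54 ± 0.10). Aifm2 stood at 11.7 ± 1.28 CPM in CLP liver and 24.6 ± 0.381 CPM in sham liver. Lman1, a cargo receptor for factors V and VIII, had -0.33 ± 0.13 with an adjusted p of 0.0633, and the protease gene Furin -0.10 ± 0.13. Of 7 liver transcription factors, all tested, 2 were higher, Cebpb (1.76 ± 0.11) and Hnf4a (0.78 ± 0.14), and 3 lower, Onecut1 (-1.66 ± 0.39), Foxa1 (-1.34 ± 0.15) and Cebpa (-0.78 ± 0.15). The call of Onecut1 ended with no low-count filter (adjusted p = 0.0636). Ggcx, Vkorc1 and Vkorc1l1 are named after their values were seen, to complete the counts. Exons of Aifm2, Apoh, Cebpa, Cebpb, F13a1, Fgg, Furin and Pzp overlap genes on the other strand. Those of Onecut1 and Vkorc1 overlap genes on the same strand, over 2171 and 401 bases, and these other genes held 0 counts. Over these 5 lists the median log2 fold change in liver was -0.03, with 12 of 44 tested genes higher and 11 lower, where all tested genes gave 21.4% and 21.0%.

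**Figure D5:**
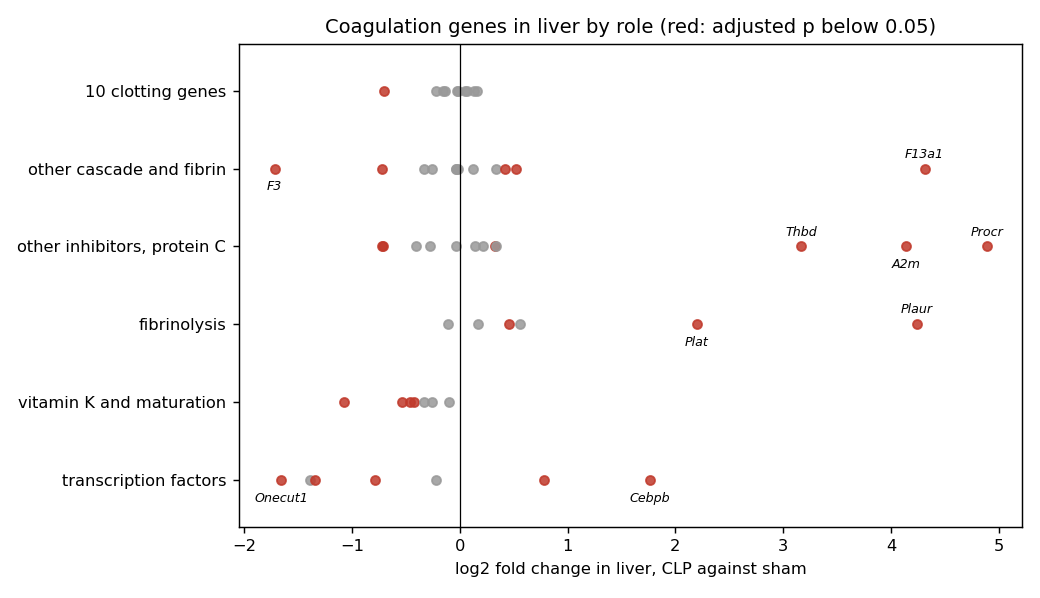
Log2 fold change in liver of CLP against sham for the 10 clotting genes (top row) and 5 lists of related genes, one point per tested gene, red where the adjusted p was below 0.05. The top row spans -0.70 to 0.16, while the fibrinolysis genes reach 4.24 (Plaur) and all 7 genes of the vitamin K row lie below 0.

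Markers of other cell types moved in the same libraries. In liver the summed level of 8 sinusoidal endothelium markers was 181 to 235 CPM after CLP and 344 to 437 CPM in sham, and all 8 were lower. That of 7 neutrophil markers was 146 to 201 CPM in CLP liver and 15.4 to 18.1 CPM in sham liver, with 6 of 6 tested higher. Monocyte markers, F13a1 among them, summed to 45.8 to 50.6 CPM in CLP liver and 8.60 to 11.7 CPM in sham liver, with 5 of 6 higher. Kupffer cell markers summed to 375 to 477 CPM in CLP liver and 418 to 475 CPM in sham liver, with 1 of 7 higher and 3 lower. The sum joined markers that moved in opposite directions. Clec4f stood at 49.6 to 63.3 CPM in CLP liver and 79.0 to 91.3 CPM in sham liver, and Vsig4 at 6.98 to 11.9 and 20.4 to 24.4 CPM. Marco stood at 72.0 to 125 and 7.96 to 19.9 CPM, and C6, which overlapped, at 122 to 295 and 213 to 263 CPM. Alveolar epithelium markers summed to 60.2 to 124 CPM in CLP liver and 54.1 to 66.3 CPM in sham liver, with 6 of 7 tested higher. Most of this sum was Hopx, which overlapped, at 40.0 to 95.3 CPM in CLP liver and 49.7 to 61.9 CPM in sham liver. Sftpc stood at 5.30 to 10.2 CPM in CLP liver and 0.296 to 1.82 CPM in sham liver, against 10249 to 13559 CPM in lung. The source of these reads in liver was not tested. Summed hepatocyte markers, 9 of 10 matched, overlapped, at 90211 to 112874 CPM in CLP liver and 75446 to 102901 CPM in sham liver, and 2 of 9 were lower. In lung, beside the rises of F10 and F5, 7 of 7 neutrophil markers rose, with sums of 6028 to 8510 CPM in CLP lung and 922 to 1063 CPM in sham lung. All 6 monocyte markers rose as well, with sums of 1583 to 2112 CPM in CLP lung and 806 to 998 CPM in sham lung. Platelet markers summed to 43.3 to 71.2 CPM in CLP lung and 26.3 to 34.5 CPM in sham lung, with 3 of 7 tested higher and Gp1bb at 0 counts in all 3 CLP lung libraries. Alveolar epithelium markers summed to 21327 to 24940 CPM in CLP lung and 25943 to 27858 CPM in sham lung, with 1 of 8 higher and 1 lower. Alveolar macrophage markers summed to 483 to 487 CPM in CLP lung and 381 to 451 CPM in sham lung, with 1 of 7 higher and 2 lower. Their part in the results for F7, F10 and F5 was not tested, and in these bulk samples fewer cells of a type and less RNA per cell cannot be told apart.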

How the data were processed

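The authors deposited whole-number counts per Ensembl mouse gene for 12 libraries in 1 table, not normalized. STAR 2.7.10a, featureCounts, FastQC, DESeq2 and mm39 appear, per the submitters' processing notes, with no step attached. Annotation release and strand setting: not given in the sources used here. Columns were assigned by library name, 3 libraries per group. Replicates differed beyond sampling noise (chi-square per degree of freedom 5.28 to 37.6).

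Counts were tested in edgeR 4.0.16 (R 4.3.3) with its low-count filter (minimum count 10, minimum total 15), trimmed mean scaling and robust quasi-likelihood, within each organ, or over all 12 libraries for the difference in response. Two-sided p-values were adjusted over all genes tested (Benjamini-Hochberg). Standard errors are the log2 value over the square root of F, an approximation that also underlies the 95% intervals. CPM are on effective library sizes per organ, and on library totals between organs. DESeq2 1.42.0, limma-voom (limma 3.58.1), other scalings, no filter, a replicate block and leaving out libraries were alternatives. The test was checked on simulated data. Precision is limited by 3 libraries per group and, for genes with few reads in lung or liver, by 3 counts. On library totals, 3 counts are 0.218 to 0.284 CPM in CLP liver and 0.189 to 0.249 CPM in sham liver libraries. On library totals, 3 counts are 0.221 to 0.266 CPM in CLP lung and 0.232 to 0.251 CPM in sham lung libraries.

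Symbols came from a table of names, which matched 52081 identifiers and left 3333. Lengths, overlaps and neighbours came from GENCODE M21 (GRCm38), an older build than mm39, so no other positions are given. The 10 genes, the lists and the tests were chosen with earlier results of these data known. The related genes described are those past the threshold with a log2 change of at least 1, the 2 most abundant in sham liver and the lowest p in each direction per list. A few genes and motifs of these lists are not reported here. The ratios to F2, F10 and Alb and the chromosomal neighbours were chosen after the values were seen.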

Additional observations from a re-analysis of the deposited data

Results flagged for a closer look

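A test of the difference between organs, the change in liver minus the change in lung on the log2 scale, was called for 14 of the clotting and related genes (edgeR with Benjamini-Hochberg adjustment). Of the 10 clotting genes 3 were negative, and of 45 related genes tested 4 were positive and 7 negative. Of all 16111 genes tested, 8.84% were positive and 8.89% negative. Among the 10 clotting genes the values were -4.50 for F10, -2.36 for F5 and -0.81 for F7. Tissue factor F3 had -2.62, Hrg -2.22, Proz -1.46, Foxa1 -1.28, Furin -1.20, Aifm2 -1.06 and Vkorc1l1 -0.57. The protein C pathway genes Thbd and Procr had 4.13 and 3.82, and the urokinase receptor gene Plaur had 2.15 and Vwf, the gene of von Willebrand factor, 0.81. Of the fibrinolysis genes, Plaur among them, limma-voom called 0 positive in this difference, and DESeq2 called 2. Hrg had 28 counts over the CLP and 10 over the sham lung libraries, so its value rests on few reads. That of Procr does too, with 19 counts over the sham liver libraries. The causes of these differences were not tested.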

How the results depend on the processing

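With library totals alone, the median gene in liver stood at -0.21 on the log2 scale, 1689 genes were higher, 3 of the 10 clotting genes were lower (F7, F9 and Proc) and 19 of the related genes were lower, against 11. Under it F2 (-0.12), F10 (-0.059), F12 (-0.033), Serpinc1 (-0.14) and Serpinf2 (-0.024) changed sign in liver, as did F11 in the difference between organs (-0.021). Upper-quartile scaling, with the median gene at -0.11, turned F2 (-0.022) and Serpinc1 (-0.038). None of these sign changes was called in either setting, and the cause was not tested. Leaving out each library in turn gave liver values from -0.012 to 0.14 for F2, -0.077 to 0.063 for F11, -0.024 to 0.13 for Serpinc1, -0.081 to 0.037 for Plg and -0.13 to 0.080 for Apoh. In lung Plg ran from -0.084 to 1.63. For the difference between organs the ranges were -1.01 to 0.055 for F2, -0.049 to 0.33 for F11, -0.76 to 0.011 for F12, -0.86 to 0.14 for Proc, -0.38 to 0.069 for Serpinc1 and -1.61 to 0.089 for Plg. Of 722 gene values under alternatives, 671 kept direction and side of the threshold. A replicate block left F7 as the 1 called clotting gene in liver, with 2649 genes higher and 2596 lower, against 2647 and 2600 without the block. Same-numbered CLP and sham libraries correlated at 0.0513 to 0.173 in liver and 0.0225 to 0.0924 in lung. The numbers were not taken as pairs, although each liver library correlated best with its own number in the other surgery group. Between liver and lung, same-numbered CLP libraries correlated at 0.133, 0.0506 and 0.144 and sham libraries at -0.0126, 0.0424 and 0.0730. The labels do not state whether these share a mouse, and the test of the difference between organs did not pair them. In lung, low counts limit 7 of the 10 genes.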

Other observations

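The chromosomal neighbours of the called genes, chosen after the values were seen, gave the following values. F10 lies between F7 and Proz, the gene of protein Z, a vitamin K dependent cofactor in the inhibition of factor X. In liver Proz stood at 189 ± 27.0 CPM after CLP and 311 ± 29.5 CPM in sham (SD, n = 3 each), a log2 fold change of -0.72 ± 0.14, beside -0.70 ± 0.16 for F7 and 0.14 ± 0.12 for F10 between them. In lung Proz stood at 8.73 ± 1.63 CPM after CLP and 5.13 ± 0.413 CPM in sham (0.77 ± 0.18), and its liver change minus its lung change was called (-1.46 ± 0.21, edgeR, Benjamini-Hochberg adjusted p = 0.000571). Mcf2l, on the other side of F7, stood at 171 ± 40.4 CPM in CLP lung and 251 ± 32.9 CPM in sham lung (-0.55 ± 0.18). The 4 neighbouring genes therefore had changes in lung of -0.55, 0.14, 4.66 and 0.77 in the order Mcf2l, F7, F10 and Proz.

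F5 lies next to Selp, the gene of P-selectin, which platelets and endothelium use to bind leukocytes. Selp stood at 65.9 ± 31.5 CPM in CLP lung and 5.71 ± 0.778 CPM in sham lung (3.53 ± 0.42), beside the rise of F5 there. In liver Selp stood at 36.2 ± 5.41 CPM after CLP and 1.31 ± 0.323 CPM in sham (4.77 ± 0.20), while F5 was not called. Slc19a2, on the other side of F5, had a log2 fold change of 0.41 ± 0.12 in lung (edgeR, Benjamini-Hochberg adjusted p = 0.0254). Slc19a2 was lower in liver after CLP, at -0.895 ± 0.0908 (edgeR, Benjamini-Hochberg adjusted p = 0.000199). F11 and its neighbour Klkb1, the gene of plasma prekallikrein, were both without a call in liver, at -0.03 ± 0.10 and -0.04 ± 0.18. Exons of Klkb1 overlap another gene on the same strand over 2267 bases, and that gene held 1 count.

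Within CLP liver, replicate 3 held the highest CPM of 6 of the 10 genes and replicate 1 the lowest of 7. Within sham liver, replicate 3 held the highest of 9 and replicate 1 the lowest of 8. The 10 genes together took 0.654 to 0.727% of all counts in CLP liver and 0.755 to 0.837% in sham liver. In lung they took 0.0130 to 0.0284% after CLP and 0.00433 to 0.00464% in sham. These are shares of library totals, on which the median gene in liver stood at a log2 fold change of -0.21. On scaled library sizes the summed CPM of the 10 genes overlapped in liver. The sums were 6933, 7769 and 7520 CPM in CLP liver and 6621, 7577 and 7947 CPM in sham liver.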
